A study of Mus musculus with 38 samples.

Results

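The cytochrome P450 genes of mouse brown adipose tissue were followed on 38 one-colour microarrays. Members were chosen by gene name (Cyp, digits, then a letter or a pair of letters, then digits, leaving out Cyp51) and by detection, meaning that the probe was well above background on 6 or more of the 38 arrays. Of 91 gene names that matched the pattern, 56 became members, out of 21625 genes that passed the same detection filter and were tested. The detection calls chose the members, so the detection counts given here are a description. C57BL/6J mice, weaned at 3 to 4 weeks of age, were fed a low fat diet with 10% of calories from fat (LFC), a high fat diet with added sucrose and 60% of calories from fat (HFC), or the high fat diet with 5, 20 or 75 µg of Kal-1, an aqueous botanical formulation (HF5, HF20 and HF75). LFC and HFC had 10 arrays each, at Day 6, Day 10, Day 14 and Weeks 0, 3, 6, 9, 12, 15 and 18. Each Kal-1 dose had 6 arrays, at Weeks 3 to 18 in steps of 3 weeks, and every dose group also received the high fat diet, so no array shows Kal-1 without it. Each group has 1 array per time point, and the labels do not say whether an array holds RNA of 1 animal or of a pool, so the p-values measure the spread between these arrays, which may be technical.

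Cytochrome P450 enzymes are haem proteins that insert oxygen into small molecules with electrons handed over by a reductase partner. Members of the family build steroid hormones and bile acids, break down retinoic acid and vitamin D, oxidise fatty acids and arachidonic acid, and clear drugs and other foreign compounds. Many are most abundant in liver, and brown fat, which burns lipid to make heat, holds the fatty acid substrates of several of them.

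All values below are levels or differences on the log2 scale, where a level is the log2 of the processed spot intensity minus that of the 75th percentile of its array. Levels are compared between arrays for 1 probe and never between genes. The 75th percentile itself ran from 35.1 to 1209 intensity units. It was above 600 on 11 arrays, called bright here, and at most 429.8 on the other 27, called dim. Brightness was spread unevenly over the groups, with 4 bright arrays in LFC, 4 in HF20, 2 in HFC, 1 in HF75 and 0 in HF5. The lowest signal called well above background lay at −6.95 to −5.95 on bright arrays and at −5.66 to −1.71 on dim arrays, so the level of an undetected member on a dim array is a bound rather than a measurement. Between 39 and 51 members were detected per bright array (median 47) and between 19 and 49 per dim array (median 30).

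The label brown adipose was checked against 10 brown adipocyte markers. Ucp1, the uncoupling protein of brown fat, was detected on all 38 arrays at a median of 6.27. The HF75 array of Week 3 stood apart, with Ucp1 at −3.08, Cidea at −1.78 and Cox8b at −2.01. Its summed brown adipocyte marker level was 3.45, against 7.05 to 10.43 on the other 37 arrays, and its macrophage sum of 4.41 was the highest of the 38. Results past the threshold that rest on that array are therefore also given without it. Markers of other tissues varied between arrays too. The hepatocyte marker sum (8 of 10 markers tested) ran from −3.60 to 5.87 and was highest on the HF20 array of Week 6, where Cyp2d26, a gene of liver, was at 1.08 against −5.35 to −0.36 elsewhere. The source of the hepatocyte marker signal and its part in the member levels were not tested. In whole tissue fewer cells of a type and less RNA per cell cannot be told apart.

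**Figure D1:**
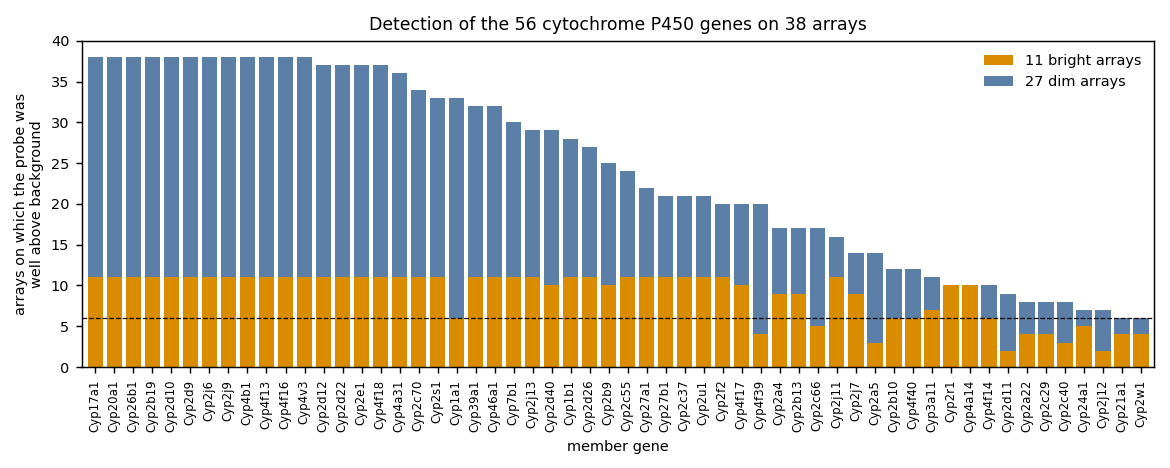
Bars give, for each of the 56 members on the x axis, the number of arrays on which its probe was well above background (y axis, of 38), split into the 11 bright and 27 dim arrays, with the membership threshold of 6 arrays as a dashed line. The 12 members at the left were detected on all 38 arrays, whereas Cyp2r1 and Cyp4a14 were detected on 10 bright arrays and on 0 dim arrays.

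Detection divided the family. Cyp17a1, Cyp20a1, Cyp26b1, Cyp2b19, Cyp2d9, Cyp2d10, Cyp2j6, Cyp2j9, Cyp4b1, Cyp4f13, Cyp4f16 and Cyp4v3 were detected on all 38 arrays, and Cyp2d12, Cyp2d22, Cyp2e1 and Cyp4f18 on 37. Just inside the threshold lay Cyp21a1 and Cyp2w1 on 6 arrays, Cyp24a1 and Cyp2j12 on 7, and Cyp2a22, Cyp2c29 and Cyp2c40 on 8. Just outside it lay 14 names, with Cyp2c44 and Cyp4f15 on 5 arrays, Cyp19a1, Cyp1a2, Cyp2c69 and Cyp4a29 on 4, and Cyp11a1, Cyp11b2, Cyp2d13, Cyp2j5, Cyp2t4, Cyp3a16, Cyp3a25 and Cyp3a44 on 3. Of the other 21 names 17 were detected on 1 or 2 arrays and 4 on 0. Where they were detected, the members just inside had levels of −6.45 to −0.47 and the names just outside had levels of −6.58 to −1.17. No member was saturated on any array.

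Member levels moved with array brightness. The mean over bright arrays was above the mean over dim arrays for 14 members and below it for 42, and the 2 means differed by over 2 log2 units for 12. Cyp1a1, which oxidises aromatic pollutants, averaged −6.07 on bright and 0.51 on dim arrays. Cyp27a1, the mitochondrial sterol 27-hydroxylase, averaged −0.50 and −3.66, and Cyp2u1, a fatty acid hydroxylase, −1.35 and −3.99. Other genes moved along with brightness. The summed endothelial markers (6 of 6 tested) ran from 4.14 to 7.17 on bright and from 6.32 to 7.92 on dim arrays, and the erythroid sum (5 of 6 tested) from 6.84 to 7.78 and from 8.21 to 11.89, the latter without overlap. What brightness reflects was not tested. Results are therefore also given from a model that holds brightness class as a term, or over time points whose arrays were of 1 class.

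**Figure D2:**
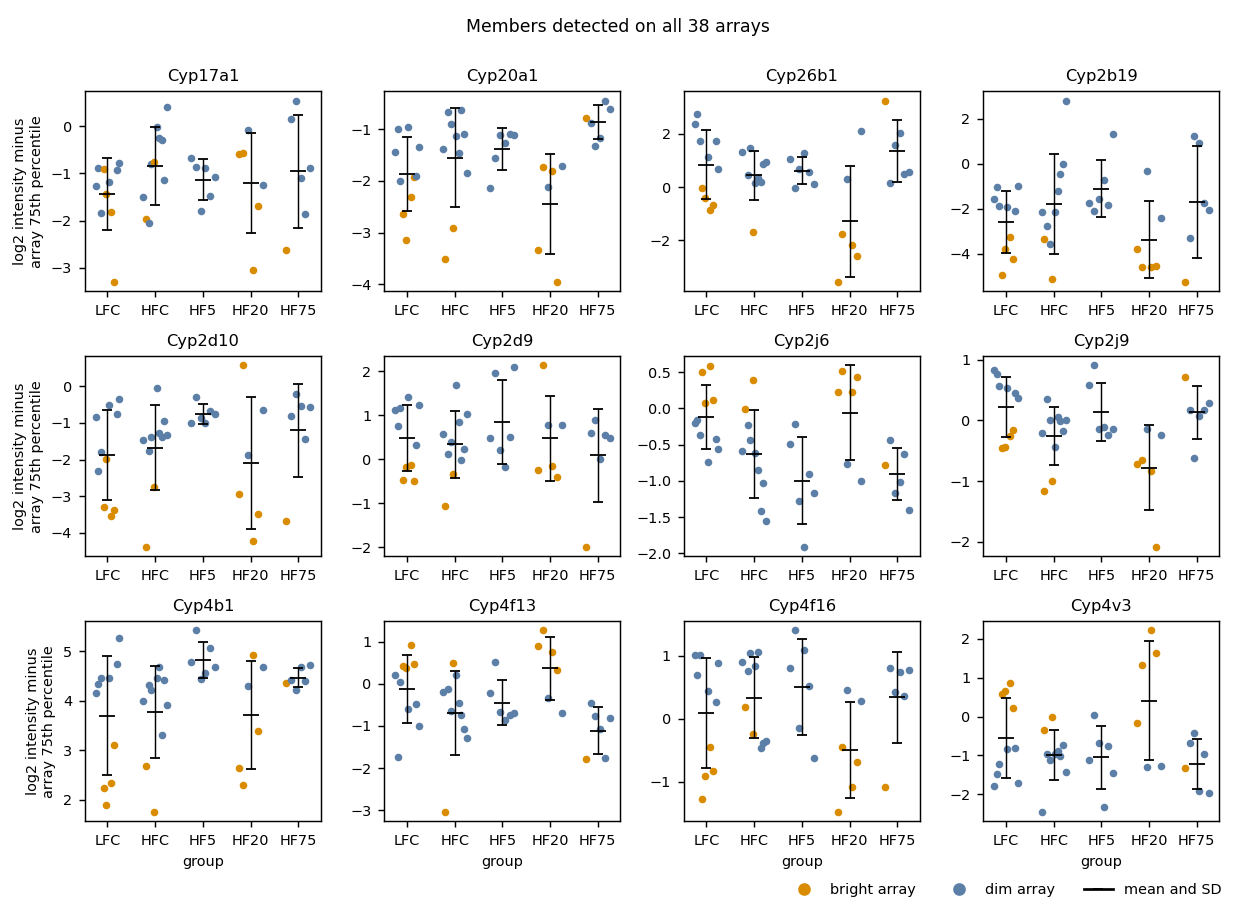
Each panel shows 1 of the 12 members detected on all 38 arrays, with the level on the y axis (log2 intensity minus the array's 75th percentile), the 5 groups on the x axis, 1 point per array coloured by brightness, and the group mean with its SD as bars. Within LFC and within HF20 the bright arrays lie wholly below the dim ones for Cyp26b1 and wholly above them for Cyp4v3, while for Cyp4b1 they do so in LFC but not in HF20, where the Week 12 array held 4.94.

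The first question was whether the high fat diet changed the family. HFC was set against LFC over 10 time points with time point as a block, in limma with Benjamini-Hochberg adjustment over all 21625 genes. In this comparison 0 of 56 members passed an adjusted p of 0.05 (background 0% of all genes), and 5 had an unadjusted p under 0.05, which is 8.93% against 6.82% of all genes. The difference was above 0 for 36 members, 64.3% against 54.8% of all genes, and its median was 0.27, against 0.05 over all genes. With a brightness term it was above 0 for 30 members, 53.6% against 50.1% of all genes, with a median of 0.02. A member that passed detection through 1 group only was bound to differ, so these counts describe the 56 and support nothing. Over all 91 names, without the detection filter, 70 were above 0. The 35 added names were detected on fewer than 6 arrays each, so their values are mostly bounds and this count supports nothing either. The methods' t-test, an unpaired test on the same values, gave 4 members at its unadjusted threshold (background 4.08%) and 0 after adjustment (background 0%). Restricted to Weeks 3 to 18 in a model of all 30 arrays, 0 members passed (background 0.00925%) and 10 had an unadjusted p under 0.05 (background 13.9%), 8 of them higher in HFC.

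Of the 4 tested enzymes of bile acid and oxysterol metabolism 2 lay above 0 and 2 below. Cyp7b1, the oxysterol 7-alpha-hydroxylase and the member with the smallest p, had levels of −4.11, −3.08 and −1.26 (lowest, median, highest) in LFC and −4.67, −3.59 and −2.25 in HFC, so the groups overlapped. HFC lay below LFC at 8 of 10 time points, by −0.71 on average (SE 0.28, adjusted p = 0.652 in limma). At the 6 time points where both arrays were of 1 brightness class it was lower in HFC at all 6, with a mean difference of −0.74 (SD 0.50). With another background correction (normexp) its sign turned, to 0.20. Cyp39a1, which hydroxylates 24-hydroxycholesterol, differed by 0.92 (SE 0.38) in Weeks 3 to 18 (adjusted p = 0.352 in limma), and HFC was the higher at 5 of 6.

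The arachidonic acid epoxygenases of families 2j and 2c showed no common direction, with 7 of 12 members above 0 and 5 below. Cyp2j9 had levels of −0.45, 0.42 and 0.83 in LFC and −1.17, −0.09 and 0.35 in HFC. All 6 time points of 1 brightness class had it lower in HFC, by −0.63 (SD 0.32), while over all 10 it was lower at 7, by −0.48 (SE 0.24, adjusted p = 0.652 in limma). With a brightness term the difference was −0.69 (adjusted p = 0.281). Its relative Cyp2j6, which makes epoxides of arachidonic acid, had levels of −0.74, −0.18 and 0.59 in LFC and −1.56, −0.60 and 0.40 in HFC, lower at 6 of 10 time points by −0.52 (SE 0.23). Within 1 class it was lower at only 3 of 6. Cyp2j13 differed by −0.60 (SE 0.30), lower at 7 of 10 time points.

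Of the 11 fatty acid hydroxylases of family 4, 9 lay above 0 and 2 below. Cyp4f39, which omega-hydroxylates very long chain fatty acids in skin, had levels of −7.35, −4.65 and −2.71 in LFC and −6.18, −3.27 and −0.59 in HFC. It was higher in HFC at 7 of 10 time points, by 1.32 (SE 0.53, adjusted p = 0.652 in limma), on probes detected on 6 LFC and 8 HFC arrays. Cyp4f13 went the other way, at −1.73, 0.13 and 0.94 in LFC and −3.05, −0.54 and 0.51 in HFC, lower at 8 of 10 time points by −0.56 (SE 0.24). Within 1 brightness class it was lower at 4 of 6, by −0.09 (SD 0.50). The remaining members of the named 12 in this family were Cyp4f17 at 0.49 (SE 0.26), Cyp4f18 at 0.45 (SE 0.28), Cyp4f40 at 0.61 (SE 0.46) and Cyp4v3 at −0.44 (SE 0.29), with adjusted p values of 0.652 to 0.667. Cyp4b1, which oxidises short fatty acids and lung toxins, had levels of 1.90, 4.25 and 5.27 in LFC and 1.75, 4.11 and 4.69 in HFC and a difference of 0.08 (SE 0.37), with HFC higher at 4 of 10 time points.

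Among the steroid hormone enzymes Cyp17a1, the 17-alpha-hydroxylase, was detected on every array. Its levels were −3.31, −1.23 and −0.78 in LFC and −2.06, −0.78 and 0.42 in HFC, which overlapped. It differed by 0.60 (SE 0.35) over the whole course and by 1.235 (SE 0.47, adjusted p = 0.352 in limma) in Weeks 3 to 18, higher in HFC at 5 of 6. With a brightness term the later difference was 0.79. The summed level of the adrenal cortex markers (4 of 5 tested) ran from −2.77 to −0.50 in LFC and from −2.79 to 0.15 in HFC, and their part was not tested. Cyp3a11, a drug-clearing enzyme of liver, differed by 1.44 (SE 0.66) over all time points and by 2.27 (SE 0.66, adjusted p = 0.352 in limma) in Weeks 3 to 18, higher in HFC at 5 of 6. It was detected on only 3 LFC and 4 HFC arrays, so most of its values are bounds. In the same weeks Cyp2d11 differed by 2.28 (SE 0.98), Cyp2b10 by 1.55 (SE 0.67) and Cyp24a1, which inactivates vitamin D, by 1.24 (SE 0.54). These rest largely on bounds, since of 6 LFC and 6 HFC arrays Cyp2d11 was detected on 1 and 3, Cyp2b10 on 1 and 2, and Cyp24a1 on 2 and 3.

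The next comparison asked whether the gap between the diets changed over the course. A term for the product of diet and day, the difference between the HFC and LFC slopes per 10 days on diet (Week 0 is day 14), was above 0 for 46 of 56 members, with a median of 0.08 against −0.001 over all genes. That is 82.1% of members against 49.5% of all genes, and with a brightness term 69.6% against 50%. Over all 91 names, without the detection filter, 80 were above 0, and the values of the added names are mostly bounds. Bounds lie higher on dim arrays, so these signs rest in part on bounds and describe the 56 only. No member passed (background 0%), while 11 had an unadjusted p under 0.05 (background 15.2%), all 11 with the steeper slope in HFC. Cyp2c66, of the 2c epoxygenase family, was at −3.57 in LFC and −3.65 in HFC on Day 6 and at −2.28 in LFC and 1.95 in HFC in Week 18. It was −5.92 and −2.05 in Week 12. From Week 3 on it was detected on 4 of 6 LFC arrays, those of Weeks 3, 9, 12 and 18, and on 3 of 6 HFC arrays, those of Weeks 12, 15 and 18, so its other values there are bounds. On those HFC arrays it stood at −2.05, −0.91 and 1.95. The slopes differed by 0.47 per 10 days (SE 0.07, adjusted p = 0.0854 in limma).

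Cyp2b19, an arachidonic acid epoxygenase of keratinocytes, followed a like course and was detected on every array. In HFC it was −5.13 in Week 3, −2.15 in Week 6, −1.20 in Week 9, −0.44 in Week 12, 0.00 in Week 15 and 2.81 in Week 18. In LFC it was −3.82, −1.94, −3.27, −4.26 and −2.13 in Weeks 3 to 15, and its Week 18 level was above all of these and below that of HFC. HFC was below LFC in Weeks 3 and 6 and above it in all 4 later weeks. The slopes differed by 0.36 (SE 0.08, adjusted p = 0.0907). Cyp21a1, the steroid 21-hydroxylase, differed by 0.23 (SE 0.05, adjusted p = 0.0906), though it was detected on only 4 LFC arrays and 1 HFC array. Cyp2d11 differed by 0.48 (SE 0.13), Cyp46a1, the cholesterol 24-hydroxylase of neurons, by 0.19 (SE 0.06), and Cyp3a11 by 0.31 (SE 0.11). With a brightness term Cyp2c66, Cyp2b19 and Cyp21a1 passed, at adjusted p values of 0.0263, 0.0275 and 0.0415 in limma, 3 of 56 members beside a background of 3.07% of all genes in that fit. LFC was bright in Weeks 3, 9 and 12 and HFC only in Week 3 of this stretch, and from Week 6 on every HFC array was dim.

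**Figure D3:**
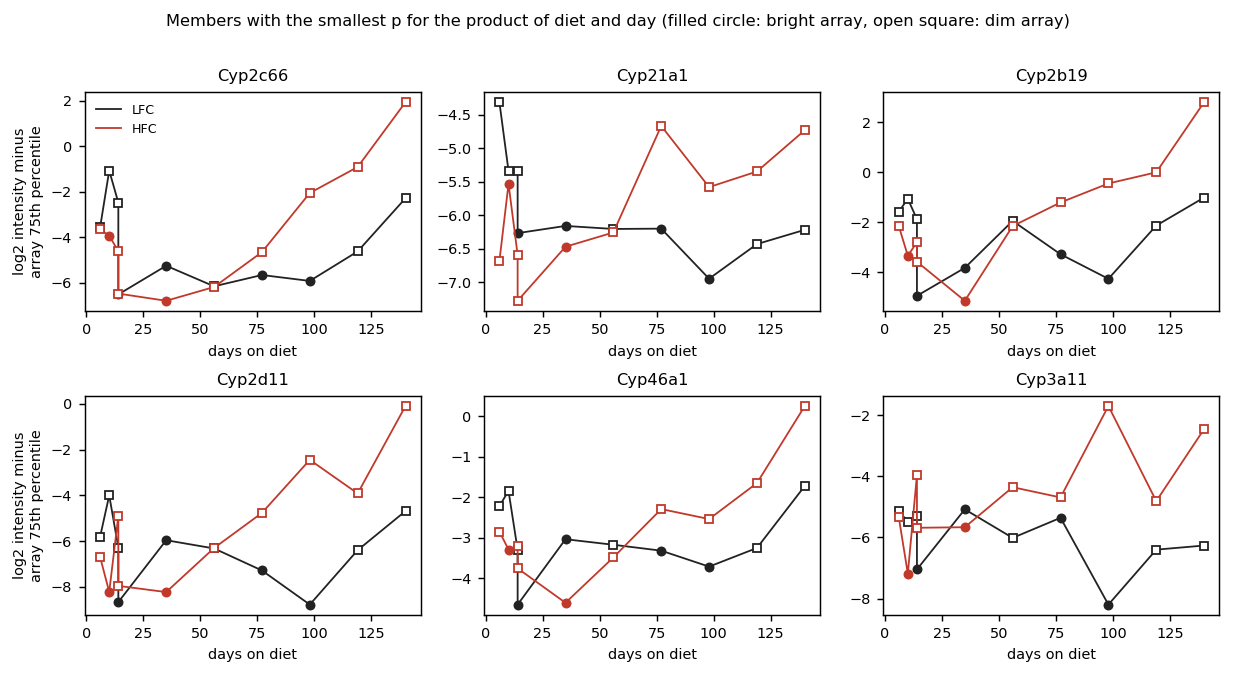
The 6 panels plot level (log2 intensity minus the array's 75th percentile) against days on diet for LFC (black) and HFC (red), 1 array per point, with bright arrays as filled circles and dim arrays as open squares. The HFC line ends above the LFC line in all 6, at 1.95 against −2.28 for Cyp2c66, and the bright LFC arrays lie low for Cyp2b19.

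Apart from the diets, a common slope over the 20 LFC and HFC arrays was fitted, with diet but not time point in the model. It was above 0 for 45 of 56 members, 80.4% against 53.3% of all genes, and with a brightness term for 75% against 53%. These signs rest in part on bounds, which lie higher on dim arrays. No member passed (background 1.41%) and 13 had an unadjusted p under 0.05 (background 21%). The smallest p belonged to Cyp24a1, at 0.18 per 10 days (SE 0.05, adjusted p = 0.0692 in limma), then to Cyp2w1 at 0.17, Cyp4a31 at 0.13, Cyp4a14 at 0.12, Cyp2b19 at 0.21 and Cyp2d11 at 0.23. In the 10 HFC arrays taken alone 8 members passed, against 7.65% of all genes, and all 8 rose: Cyp2d11, Cyp2b19, Cyp24a1, Cyp4f39, Cyp2c29, Cyp27b1, Cyp46a1 and Cyp2c66, at 0.18 to 0.47 per 10 days. Of the 10 HFC arrays, Cyp2b19 and Cyp46a1 were detected on all, Cyp4f39 on 8, Cyp27b1 on 7 and Cyp2c66 on 6. Cyp2d11 and Cyp24a1 were detected on 4 each and Cyp2c29 on 2. The undetected values are bounds, which lie higher on dim arrays. In the LFC arrays alone 0 members passed (background 0%), and of all genes 3.4% had an unadjusted p under 0.05. These counts do not show that the slopes differ between the diets, and in the product term, which tests that, 0 members passed. The bright HFC arrays were those of Day 10 and Week 3.

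The next question was what Kal-1 did on the high fat diet, dose by dose, over Weeks 3 to 18. All 3 dose groups were set against the same 6 HFC arrays. For HF5 0 members passed (background 0%) and 2 had an unadjusted p under 0.05 (background 5.51%). For HF20 0 passed (background 0%) and 16 had an unadjusted p under 0.05 (background 32.8%), 11 of them lower. For HF75 0 passed (background 0%) and 4 had an unadjusted p under 0.05 (background 9.26%), 3 of them lower. The median difference was −0.07 for HF5, −0.55 for HF20 and −0.48 for HF75, against 0.02, −0.18 and −0.03 over all genes. With a brightness term the HF20 median was −0.26, against 0.01 over all genes. For HF20 17 of 56 members lay above 0, and 18 of all 91 names without the detection filter. These medians rest in part on bounds, which lie lower on bright arrays. Without the HF75 array of Week 3 the HF75 median was −0.28 and 1 member had an unadjusted p under 0.05 (background 6.12%).

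In HF5 against HFC the smallest p values belonged to Cyp4b1 and Cyp24a1. Cyp4b1 was at 4.44, 4.74 and 5.43 (lowest, median, highest) in HF5, and averaged 3.76 ± 1.103 (SD, n = 6) in HFC, a difference of 1.07 (SE 0.49, adjusted p = 0.814 in limma). HF5 was higher at 5 of 6 time points, and over the 5 points of 1 brightness class at 4, by 0.68 (SD 0.57). The HFC array of Week 3, which was bright, held 1.75. Cyp24a1 differed by −1.14 (SE 0.54) on 3 detected HFC arrays and 0 detected HF5 arrays, and with undetected values raised to the detection floor the sign turned, to 0.14. Cyp2c37, lower in HF5 on average, was detected on 0 HF5 arrays and on 4 of 6 HFC arrays, so its other values are bounds.

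In HF20 against HFC the named members lay on both sides of 0. Cyp2b10, which phenobarbital induces in liver, had levels of −4.65, −2.61 and 0.40 in HF20 and averaged −4.33 ± 0.99 (SD, n = 6) in HFC. It was higher in HF20 at 5 of 6 time points, by 1.997 (SE 0.67, adjusted p = 0.121 in limma). Cyp2b13 differed by 2.38 (SE 0.94) and Cyp2b9 by 2.19 (SE 1.12). Of 6 HF20 and 6 HFC arrays Cyp2b10 was detected on 4 and 2, Cyp2b13 on 5 and 2, and Cyp2b9 on 5 and 5. Most HFC values of Cyp2b10 and Cyp2b13 are therefore bounds. With normexp the Cyp2b10 difference turned to −0.13. Cyp2c66 differed by −2.77 (SE 0.89), Cyp24a1 by −1.90 (SE 0.54), Cyp2w1 by −1.81 (SE 0.64), Cyp4f40 by −1.36 (SE 0.50) and Cyp20a1, an orphan member, by −0.93 (SE 0.35). Cyp20a1 was detected on all of these arrays, but Cyp2c66, Cyp24a1 and Cyp2w1 were detected on 1 of 6 HF20 arrays each and Cyp4f40 on 2, and Cyp2w1 and Cyp4f40 on 1 of 6 HFC arrays each, so those differences are largely between bounds. Once brightness was a term every one of these had an adjusted p of 0.9745, and 1 of 56 members had an unadjusted p under 0.05 (background 3.06%). Without Week 3, the only week in which HFC was bright, 10 members passed beside a background of 15.5% of all genes, Cyp2c66 at −3.55, Cyp2b19 at −3.10 and Cyp2b10 at 2.52 among them.

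HF75 was of the same brightness class as HFC at all 6 time points. Cyp2u1 had levels of −5.07, −4.76 and −3.14 in HF75 and averaged −2.67 ± 1.58 (SD, n = 6) in HFC. It was lower in HF75 at 6 of 6 time points, by −1.85 (SE 0.71, adjusted p = 0.530 in limma), and was detected on 1 HF75 array. Cyp2d12, at −4.01, −1.84 and −1.16 in HF75, was also lower at 6 of 6, by −0.94 (SE 0.39). Cyp1a1 was higher at 6 of 6, by 2.08 (SE 1.44, adjusted p = 0.606 in limma), with differences of 0.72 to 3.48. Cyp7b1 was higher at 5 of 6, by 1.15 (SE 0.53), where the Week 3 array held the highest value, −0.47, and without that array the difference was 0.69. The model without that array kept the other arrays of Week 3, so its values are not means over the remaining pairs. It gave −1.68 for Cyp2u1, −0.69 for Cyp2d12 and 2.71 for Cyp1a1.

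The doses were then compared with each other by an F test. Of 56 members 7 passed, beside a background of 13.8% of all genes, and 15 had an unadjusted p under 0.05 (background 37.3%). These were Cyp20a1, Cyp2u1, Cyp4f13, Cyp27a1, Cyp1a1, Cyp26b1 and Cyp2b10, with adjusted p values of 0.0338 to 0.0491 in limma. HF75 against HF20 gave 12 members past the threshold (background 25.9%) and 18 with an unadjusted p under 0.05 (background 42.1%). With a brightness term 0 members passed in either (background 0% in both), while 5 and 6 had an unadjusted p under 0.05 (background 11.5% and 14%). Without the HF75 array of Week 3 the F test gave 0 (background 0%), with 16 at an unadjusted p under 0.05 (background 34.5%), and HF75 against HF20 gave 5 beside a background of 9.08%, namely Cyp20a1, Cyp4f13, Cyp2u1, Cyp27a1 and Cyp1a1. The HF20 arrays of Weeks 3, 6, 12 and 15 were bright, as was 1 HF75 array, and 0 HF5 arrays were.

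Among these 7, Cyp20a1 was lowest in HF20, at −3.96, −1.96 and −1.72, against −2.13, −1.19 and −1.08 in HF5 and −1.32, −0.83 and −0.45 in HF75. The HF20 and HF75 ranges did not overlap, and HF75 was higher at 6 of 6 time points, by 1.58 (SE 0.35, adjusted p = 0.0144), including all 3 points of 1 class (mean 1.49, SD 0.93). Week 3, whose HF75 array stood apart, is 1 of those 3 points. Cyp4f13, of the fatty acid hydroxylases, ran the other way, with −0.70, 0.54 and 1.27 in HF20 and −1.79, −0.94 and −0.45 in HF75. It was lower in HF75 at 6 of 6, by −1.48 (SE 0.34, adjusted p = 0.0144). Cyp2u1 was at −4.25, −1.12 and −0.19 in HF20 and −4.82, −3.91 and −2.92 in HF5, and HF75 was lower than HF20 at 6 of 6, by −2.90 (SE 0.71). It was detected on 4 HF20, 3 HF5 and 1 HF75 arrays, so its other values are bounds.

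Cyp27a1 was at −4.04, −0.12 and 0.58 in HF20 and at −5.53, −4.32 and −2.75 in HF75, a difference of −2.99 (SE 0.85) with 1 time point in the other direction. Its 4 bright HF20 arrays were the high ones. It was detected on those 4 HF20 arrays, on 1 HF75 array and on 1 HF5 array, so the difference is largely against bounds. Cyp26b1, which clears retinoic acid, was at −3.57, −1.96 and 2.09 in HF20 and at 0.14, 1.08 and 3.25 in HF75, whose highest value was the Week 3 array. The difference of 2.63 (SE 0.74) became 2.03 without that array. Cyp2b10 averaged −2.34 in HF20 and −4.69 in HF75. It was detected on 4 of 6 HF20 arrays, those of Weeks 3, 6, 12 and 15, which were bright. On HF75 arrays it was detected 0 times, so its other values are bounds. Past the threshold in HF75 against HF20 alone lay Cyp4v3 at −1.62 (SE 0.52), Cyp2b13 at −2.86 (SE 0.94), Cyp2s1 at 1.80 (SE 0.61), Cyp2j9 at 0.91 (SE 0.31) and Cyp2j6 at −0.85 (SE 0.30), with adjusted p values of 0.0286 to 0.0431 in limma, and 0 of these 5 passed without the HF75 array of Week 3. Cyp2b13 was detected on 5 HF20 arrays and 1 HF75 array.

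**Figure D4:**
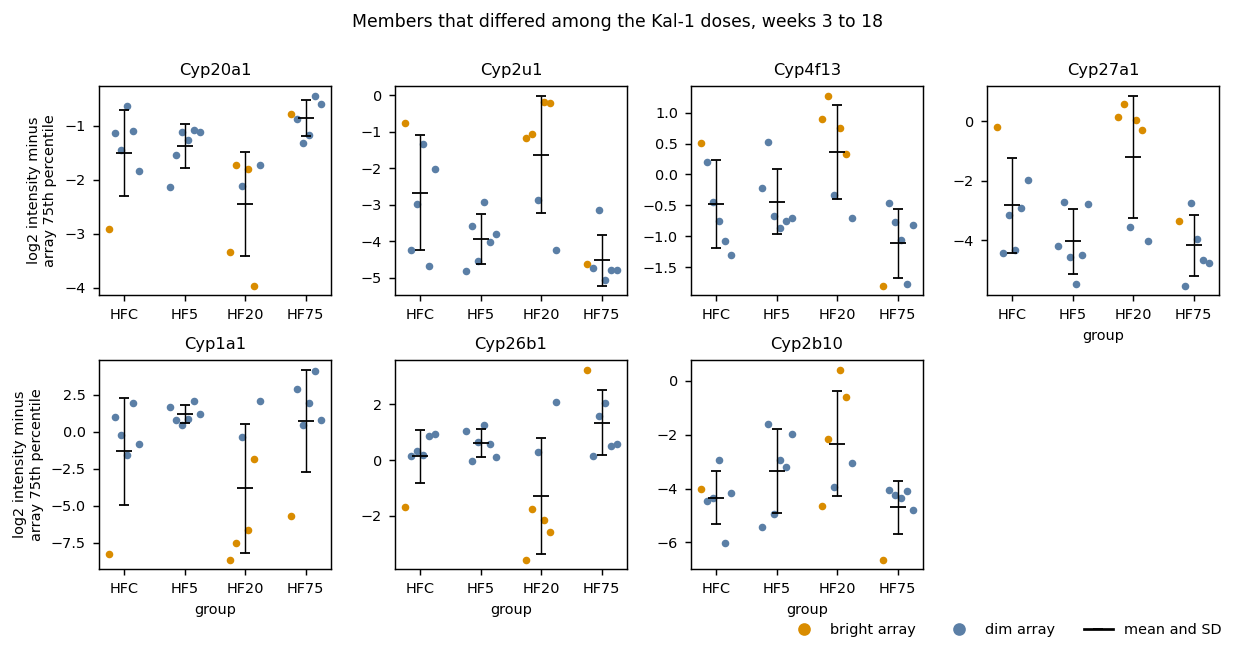
Each panel shows 1 of the 7 members that differed among the doses in Weeks 3 to 18, with the level on the y axis (log2 intensity minus the array's 75th percentile), HFC and the 3 dose groups on the x axis, 1 point per array coloured by brightness, and mean with SD as bars. Bright arrays make up 4 of the 6 HF20 points, and in HF20 they lie wholly above the dim ones for Cyp27a1, Cyp2u1 and Cyp4f13 and wholly below them for Cyp1a1 and Cyp26b1.

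The aryl hydrocarbon receptor targets in the family were Cyp1a1 and Cyp1b1, as Cyp1a2 missed the threshold. Cyp1a1 had the widest spread of the members, with −8.67, −1.76 and 1.33 in LFC, −8.24, −1.20 and 1.95 in HFC, 0.44, 1.03 and 2.10 in HF5, −8.62, −4.25 and 2.06 in HF20 and −5.71, 1.36 and 4.11 in HF75. All 27 dim arrays detected it, and 6 of 11 bright arrays did. Cyp1b1 went the opposite way by brightness, at −1.60 on bright and −2.89 on dim arrays. The 5-letter core that the receptor binds, GCGTG read on either strand, was sought in the 250 bases before the start of each gene in RefSeq (GRCm38.p6). It occurs in 28.2% of 32851 promoters and in 13 of the 44 members with an entry (29.5%). Both sequences are shown because they carry that core, in capitals, while the levels had r of −0.46 over the 38 arrays. Within bright arrays r was −0.0028 and within dim arrays 0.08, so the negative value lies between the brightness classes. Cyp1a1 is taken from chr9:57697363-57697612 on the plus strand and Cyp1b1 from chr17:79715062-79715311 on the minus strand, both read 5′ to 3′.
Cyp1a1: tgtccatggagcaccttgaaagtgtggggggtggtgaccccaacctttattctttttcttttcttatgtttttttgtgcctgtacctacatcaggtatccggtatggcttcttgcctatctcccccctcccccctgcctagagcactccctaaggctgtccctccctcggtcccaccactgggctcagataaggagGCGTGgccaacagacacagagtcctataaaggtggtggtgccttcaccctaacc
Cyp1b1: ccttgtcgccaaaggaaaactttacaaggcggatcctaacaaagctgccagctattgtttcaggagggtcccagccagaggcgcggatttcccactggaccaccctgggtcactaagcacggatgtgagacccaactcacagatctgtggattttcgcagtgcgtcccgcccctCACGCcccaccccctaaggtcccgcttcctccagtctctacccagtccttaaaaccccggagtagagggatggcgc
Each holds the core 1 time, and Cyp2b10 holds it too, which is a match of letters only. Ahr, the receptor, itself differed between HF75 and HF20 by 1.72 (SE 0.52, adjusted p = 0.0237 in limma), by 1.72 (adjusted p = 0.0518) without the HF75 array of Week 3 and by 0.81 (adjusted p = 0.403) with a brightness term.

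Cyp2b9, Cyp2b10 and Cyp2b13, neighbours on chromosome 7 that encode enzymes of drug and steroid clearance, had levels that varied together. Over the 38 arrays Pearson's r was 0.87 between Cyp2b10 and Cyp2b13, 0.86 between Cyp2b9 and Cyp2b13 and 0.75 between Cyp2b9 and Cyp2b10, while the median over 1540 member pairs was 0.13. The points share the scaling of each array. Within bright arrays r was 0.94 to 0.98, and within dim arrays 0.59 to 0.79. Cyp2b10 was detected on 12 of the 38 arrays (6 bright and 6 dim), Cyp2b13 on 17 (9 and 8) and Cyp2b9 on 25 (10 and 15). Most dim values of Cyp2b10 and Cyp2b13 are therefore bounds, as are some of Cyp2b9, and the r values rest in part on them. Cyp2b19, from the same cluster, had r of −0.02 to 0.06 with the 3. Their chosen probes matched each other at no more than 23 bases of a probe length of 60. The probes were not compared with the transcripts of the other genes, so binding of 1 probe to several of these transcripts was not tested.

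Cyp2b9 was at −3.99, −0.70 and 2.71 in HF20, −4.41, −1.92 and −0.11 in HF5, −6.97, −3.28 and −1.62 in HF75, −6.87, −4.03 and −1.45 in HFC and −6.41, −4.84 and 0.62 in LFC. The highest values of the 3 genes fell on the same array, HF20 of Week 12, with 2.71 for Cyp2b9, 0.40 for Cyp2b10 and 0.83 for Cyp2b13. HF20 of Week 15 held 1.34, −0.61 and −0.52, and LFC of Week 12 held 0.62, −2.50 and −1.46. Cyp2e1, the ethanol oxidase, was at 3.58, 3.05 and 4.05 on those 3 arrays, its 3 highest values, and had r of 0.67 with Cyp2b9. The white adipocyte marker sum (5 of 7 tested) was 3.85, 3.59 and 4.26 there, against 0.53 to 3.85 elsewhere. Its part in these levels was not tested. The HF75 array of Week 3 also reached 3.85 in that sum, with Cyp2b9 at −6.97, the lowest of all 38.

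**Figure D5:**
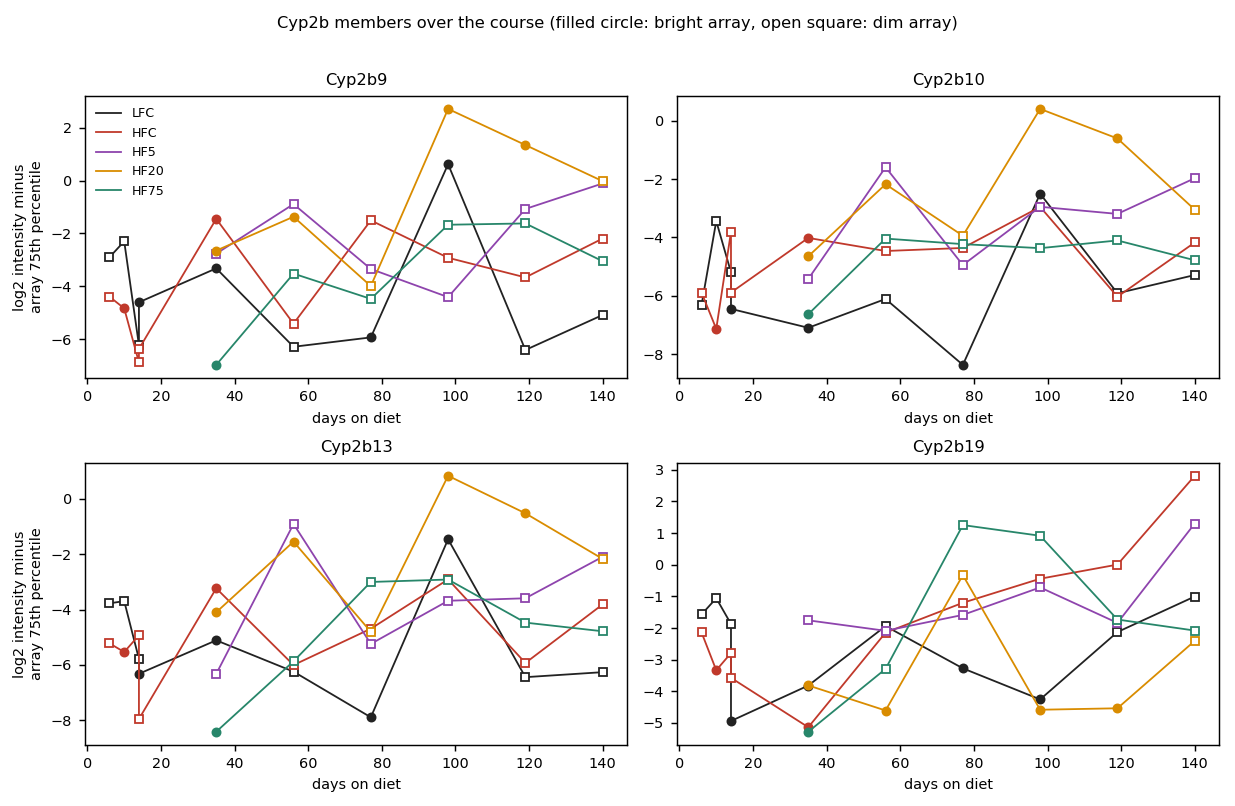
Level (log2 intensity minus the array's 75th percentile) is plotted against days on diet for the 5 groups, 1 array per point, with bright arrays as filled circles and dim arrays as open squares. Cyp2b9, Cyp2b10 and Cyp2b13 all peak in HF20 at Week 12 (2.71, 0.40 and 0.83), where Cyp2b19 is at −4.58.

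The RefSeq promoter entries (GRCm38.p6, plus strand, the 250 bases before each start) are shown because they set the 3 genes whose levels varied together beside Cyp2b19. Cyp2b9 and Cyp2b13 share 248 of 250 bases, and capitals mark the 2 bases that differ, T48C and C104T, with Cyp2b9 as the reference and positions counted from the 5′ end of the printed run. Cyp2b10 shares 68.8% of aligned positions with either of them. Cyp2b19 shares 61.7% with Cyp2b9 and with Cyp2b13 and 65.3% with Cyp2b10. The windows are chr7:26173159-26173408 for Cyp2b9, chr7:26061245-26061494 for Cyp2b13, chr7:25897408-25897657 for Cyp2b10 and chr7:26756892-26757141 for Cyp2b19, and no base is marked in the latter 2.
Cyp2b9: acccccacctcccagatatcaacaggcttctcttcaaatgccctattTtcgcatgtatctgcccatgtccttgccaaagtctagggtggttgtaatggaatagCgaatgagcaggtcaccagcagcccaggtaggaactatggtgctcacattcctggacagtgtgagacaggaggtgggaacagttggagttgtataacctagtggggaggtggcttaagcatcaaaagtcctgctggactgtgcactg
Cyp2b13: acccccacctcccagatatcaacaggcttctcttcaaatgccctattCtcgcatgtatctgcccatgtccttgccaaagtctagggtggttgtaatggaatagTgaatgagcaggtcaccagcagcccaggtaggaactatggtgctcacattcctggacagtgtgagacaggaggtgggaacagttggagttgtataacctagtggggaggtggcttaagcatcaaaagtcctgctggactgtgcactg
Cyp2b10: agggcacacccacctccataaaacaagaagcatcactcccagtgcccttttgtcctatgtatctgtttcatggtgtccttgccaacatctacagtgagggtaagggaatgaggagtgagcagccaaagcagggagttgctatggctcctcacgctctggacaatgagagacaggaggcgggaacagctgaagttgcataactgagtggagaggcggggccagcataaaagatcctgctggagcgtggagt
Cyp2b19: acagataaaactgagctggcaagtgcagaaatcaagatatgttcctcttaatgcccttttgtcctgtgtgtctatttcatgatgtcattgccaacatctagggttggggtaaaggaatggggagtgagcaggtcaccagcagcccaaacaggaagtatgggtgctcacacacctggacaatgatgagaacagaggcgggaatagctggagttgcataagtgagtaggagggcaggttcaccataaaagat
None of the 4 holds the letters TATAAA in this window on either strand, while 12.4% of all promoters and 16 of 44 members do. For Cyp2b13 a second probe that passed the detection filter followed the chosen one poorly (r = 0.109), whereas for Cyp2b9 and Cyp2b10 the second probes had r of 0.657 and 0.777. Of 13 members with 2 passing probes, 10 had r above 0.5 between them, and in all 13 both probes placed HFC on the same side of LFC.

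Beyond the Cyp2b cluster, Cyp2b19 and Cyp4f39, both known from skin, had the highest r of any pair, 0.88, and Cyp2c66 and Cyp46a1 had 0.85. Cyp2d12 and Cyp2d40 of the xenobiotic 2d cluster had 0.85 as well. The brightness classes matter here, as r between Cyp27a1 and Cyp2u1 was 0.81 over all arrays, 0.86 in bright and 0.31 in dim ones.

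The partners that the family depends on were read from lists written with earlier results of these data known, so the counts below describe the listed genes only. All 9 tested redox partners of 10 listed lay below 0 in HFC against LFC, where 54.8% of all genes lay above 0. Their median was −0.33 and 0 passed the adjusted threshold. Cyb5b, a mitochondrial cytochrome b5, differed by −0.86 (SE 0.30) and Por, the reductase that feeds electrons to the microsomal members, by −0.56 (SE 0.42). In HF75 against HF20, where 25.9% of all genes passed, 5 of 9 redox partners passed, all lower in HF75, as did 6 of 12 genes of haem synthesis and breakdown, all lower, and 7 of 14 tested receptors that regulate the family. Without the HF75 array of Week 3, where 9.08% of all genes passed, these counts were 1, 4 and 2, and with a brightness term they were 0, 0 and 0. Por differed by −1.54 (SE 0.54), and by −1.46 (adjusted p = 0.0823 in limma) without that array. Fdx1, the electron carrier of the mitochondrial members, differed by −1.81 (SE 0.50), and by −1.64 (adjusted p = 0.0517) without it. Alas1, the entry enzyme of haem synthesis, differed by −2.40 (SE 0.68), and by −1.99 (adjusted p = 0.0586) without it. Of the receptors, Ppara, the fatty acid sensor, differed by −4.55 (SE 1.03), and by −3.68 (adjusted p = 0.0436) without it. Nr1i3, the receptor through which phenobarbital acts, differed by 3.55 (SE 1.24), and by 3.14 (adjusted p = 0.0936) without it. Of these 5 genes Ppara alone passed without that array, and with a brightness term it differed by −2.85 (adjusted p = 0.225). Of 10 brown adipocyte markers 4 passed as lower in HF75, and 0 did without that array. Their part in these values was not tested.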

How the data were processed

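RNA of brown adipose tissue was hybridised to 38 one-colour Agilent mouse arrays. The deposited scanner files hold, per spot, the processed signal intensity that the authors obtained with Feature Extraction (10.5.1.1 in the file headers, 9.1 in the submitters' processing notes), which subtracts background. A deposited table of log2 values, which the authors set relative to the LFC array, was not used. Control and outlier spots were left out, spots of a probe averaged, log2 intensity centred on the 75th percentile of each array, and the highest-mean probe kept per gene. Genes well above background on 6 or more arrays were tested (21625). Models were fitted in limma 3.58.1 (R 4.3.3) with time point as a block and Benjamini-Hochberg adjustment over all genes. The common slope was fitted with diet and day and no block, and the slopes of each diet alone with day only. The first used 20 LFC and HFC arrays, and the dose model 30. The fits were tested on simulated data. Figures used matplotlib 3.10.9. Members past the adjusted threshold of 0.05 were named, otherwise those with the 12 (HFC against LFC) or 6 smallest p values, with those detected on all arrays or near the membership threshold. Members, lists and rules were chosen with earlier results of these data known. Alternatives covered normalization, background, probe filter, blocks, brightness and single time points. Array number limits the precision.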

Additional observations from a re-analysis of the deposited data

Results flagged for a closer look

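Within groups, 8 of 94 combinations of a member and a group held 1 array far from the others, over 19 members tested, where chance flags about 1 in 20. The HF75 array of Week 3 accounted for 4 of them. It held Cyp1a1 at −5.71 (nearest 0.47), Cyp2d10 at −3.67 (nearest −1.45), Cyp2d9 at −2.0037 (nearest 0.01) and Cyp4f16 at −1.08 (nearest 0.36), and its brown adipocyte marker sum was the lowest of the 38. Cyp17a1 was at −3.31 on the LFC array of Week 12 (nearest −1.84), and Cyp2j9 was at −2.09 on the HF20 array of Week 15 (nearest −0.83). Cyp4a31 was at 0.95 on the HFC array of Week 18 (nearest −1.27), and Cyp4f13 was at −3.05 on the HFC array of Day 10 (nearest −1.30). The levels of 7 members differed among the 3 Kal-1 doses by the F test in limma, and 0 did with a brightness term or without the HF75 array of Week 3.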

How the results depend on the processing

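Of the counts of members past the adjusted threshold, 136 recomputed values stayed within 1.5 times the main count and 22 moved. All main counts except that for the dose differences were 0, so a count that stayed was mostly 0 again. The count for differences among the doses, 7, became 0 with normexp (offset 50), with no filter on dim probes, with the brightness class or the log2 of the 75th percentile as a term, and when the HF75 array of Week 3 was left out, an alternative chosen after seeing the data. It became 12 with a floor at the lowest detected signal and 12 with slide as a random block, and ran from 0 to 14 when single weeks were left out (0 without Week 3, 6, 12 or 15, 14 without Week 9, 12 without Week 18). HF20 against HFC ran from 0 to 10, with 10 without Week 3. The product of diet and day gave 3 with the brightness class and 0 to 2 when single time points were left out, with 2 without Week 0. The common slope gave 1 with quantile normalization, 2 with normexp, 1 with the floor, 2 with the brightness class, 8 in HFC alone, and 0 to 1 when single time points were left out, with 1 without Day 6. Without time point as a block, the pairing of arrays by time point being dropped, the dose differences gave 5 and the other 6 comparisons 0. Among named members the sign turned with normexp for Cyp7b1 (0.20) and Cyp2j13 (0.0598) in HFC against LFC, Cyp2b10 in HF20 against HFC (−0.13) and among the doses (−0.0240, HF20 minus HF5). It turned with the floor for Cyp24a1 in HF5 (0.14) and HF75 (0.0229) and Cyp3a11 in HF5 (0.0323), with quantile normalization for Cyp4f17 (−0.0678), and in LFC alone for the Cyp2d11 slope (−0.0150). The cause was not tested. Of the other values for named members 1001 kept direction and side of the threshold, 69 lost it, 17 gained it and 3 moved. Signal over background limits dim arrays, where a median of 30 members was detected.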
